A study of Triticum aestivum with 9 samples.

Results

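The genes described here were the 9 wheat genes that the study named ABF (ABA-responsive element binding factor) in its list of 98 genes of plant hormone signaling. They were looked up by identifier among the 130542 genes of the deposited expression table, and all 9 were found and tested. The study had listed genes that differed between treatments, so the values of DTT-treated and control leaves had chosen these genes, and the difference between those groups is given below as a description only.

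Seedlings of wheat cultivar Yunong211 had their leaves sampled on day 2 of treatment and sequenced, with 3 biological replicates in each of 3 groups. In the DTT + TUDCA group (T), the nutrient solution held 7.5 mM dithiothreitol (DTT) and 25 µg/mL tauroursodeoxycholic acid (TUDCA). In the DTT group (D), it held 7.5 mM DTT, and the control group (C) received neither compound. All 3 groups were grown in the same nutrient solution, and no group received TUDCA alone. DTT is a reducing agent that breaks disulfide bonds and so disturbs protein folding in the endoplasmic reticulum, and TUDCA is a bile acid that helps proteins keep their fold, a so-called chemical chaperone.

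ABFs are transcription factors of the basic leucine zipper (bZIP) class that bind the ABA-responsive element in promoters of genes induced by abscisic acid (ABA). In the pathway as worked out in Arabidopsis, ABA bound to PYR/PYL receptors blocks the PP2C phosphatases, which frees SnRK2 kinases to phosphorylate and activate the ABFs. In leaves, this pathway is best known for the response to water deficit, salt and cold, including the induction of dehydrins and of the PP2C genes themselves.

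Expression is given as FPKM (mapped fragments relative to transcript length and library size). The library totals behind the FPKM, as inferred from the FPKM steps, were between 16334906 and 26760247 fragments. These are close to the fragments recovered on genes and are not the sequenced totals. Genes of the oxygen-evolving complex of photosystem II, used as leaf markers, were above 1 FPKM for 20 to 23 of 24 genes in every library. Their median was 9.21 to 10.9 FPKM in the T libraries, 8.31 to 9.59 FPKM in the D libraries and 11.9 to 15.3 FPKM in the control libraries. It was thus lower in every treated library than in every control library. The study had listed these 24 genes for differing between D and C, so this order was not independent of their choice. The part of this lower median in the ABF differences was not tested. The second T library stood apart, with 2186 of 55137 genes more than 4-fold away from the mean of the remaining T libraries, against 146 to 330 genes in each of the other 8 libraries. In whole leaves, fewer cells of a type and less RNA per cell cannot be told apart. A gene was called when its unadjusted P-value was under 0.01 and its absolute log2 fold change was at least 1, the thresholds of the study.

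The 9 ABF genes were carried by chromosome arms 3AL, 3B, 5AL, 6AL, 6BL, 6DL, 7BS and 7DS according to their identifiers, with a pair of genes on 6DL. The study also predicted 5 of the 9 as bZIP transcription factors. Their gene models were short, between 225 and 1164 bp as implied by the FPKM steps, against a median of 1271 bp over all genes. Nothing in the sources used here says whether genes on related arms are copies of 1 ancestral gene. How fragments shared by near-identical copies were counted, or whether they were left out, is not given either. The level of any single copy is thus uncertain.

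All 9 ABF genes were higher in every T library than in every control library, where 15.3% of all genes tested were, and 7 of them were called higher in T vs. C, where 4.36% of all genes were. None of the 9 was called in T vs. D, where 0.466% of all genes were called lower and 0.632% higher. In 8 of the 9, the T libraries overlapped with the D libraries. Both comparisons share libraries with the choice of the genes. The 4 genes of chromosome 6 made up 90.0 to 93.7% of the summed ABF level in every library. That sum was 288.2, 193.2 and 236.8 FPKM in the T libraries, 326.1, 250.9 and 330.3 FPKM in the D libraries and 72.6, 61.6 and 59.5 FPKM in the control libraries. The lowest T library was thus far above the highest control library, and one T library fell within the range of D.

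**Figure D1:**
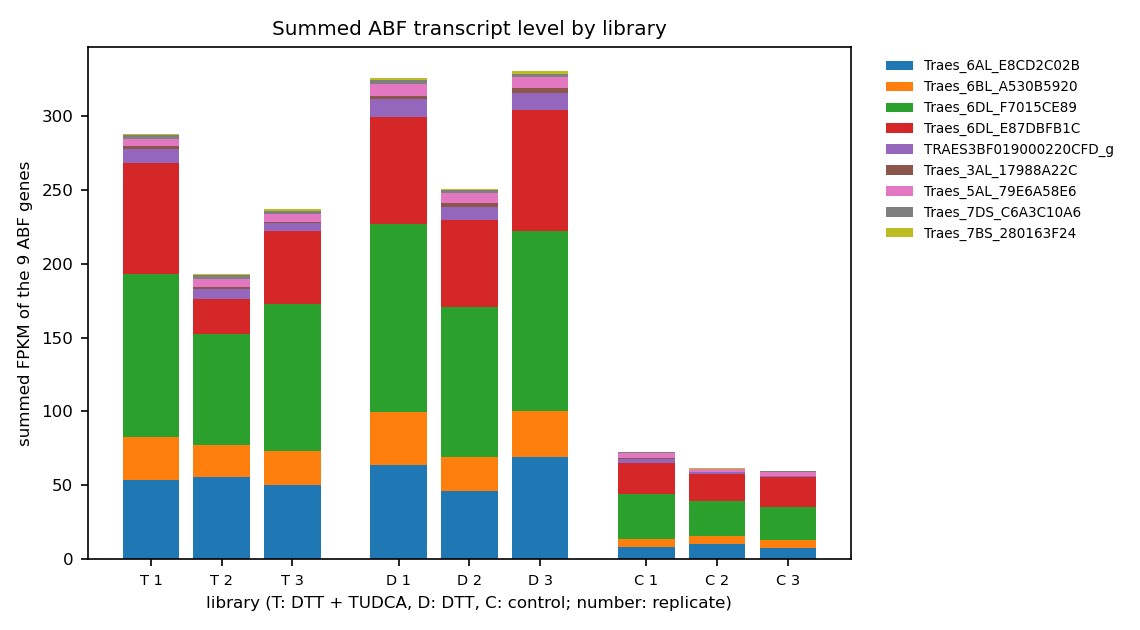
Summed FPKM of the 9 ABF genes (vertical axis, from 0) in each of the 9 libraries (bars; T, DTT + TUDCA; D, DTT; C, control), split by gene. The 3 control bars are at 59.5 to 72.6 FPKM, below all T and D bars, and the second T bar is the lowest of the treated leaves at 193.2 FPKM.

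The gene with the highest level in each group was Traes_6DL_F7015CE89. It had 111, 75.0 and 99.6 FPKM in the T libraries, 128, 102 and 122 FPKM in the D libraries and 30.4, 23.9 and 22.3 FPKM in the control libraries. All T values were above all control values, and the first T library lay within the range of D. The log2 fold change was 1.70 ± 0.18 (SE) in T vs. C, with a Benjamini-Hochberg-adjusted P-value of 0.0010 in limma, and -0.26 ± 0.18 in T vs. D. The 95% interval of the T vs. D difference was -0.66 to 0.15. Without the second T replicate, the library that stood apart, that difference was -0.13.

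Traes_6AL_E8CD2C02B had the largest fold change over control among the genes of chromosome 6. It had 53.8, 55.7 and 50.2 FPKM in the T libraries, 64.0, 46.3 and 69.1 FPKM in the D libraries and 7.98, 10.3 and 7.84 FPKM in the control libraries. Every T value lay between the lowest and the highest D value. The fitted log2 fold change was 2.42 ± 0.20 in T vs. C (adjusted P = 0.000294, limma), the lowest P-value of the 9 genes, and -0.09 in T vs. D, with a 95% interval of -0.54 to 0.36. Without the third D replicate, the T vs. D value was 0.04, and without the second D replicate it was -0.27.

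Traes_6BL_A530B5920 showed the same order of groups as the 6AL gene at a lower level. It had 28.6, 21.8 and 23.2 FPKM in the T libraries, 35.4, 22.6 and 31.0 FPKM in the D libraries and 5.83, 5.06 and 5.17 FPKM in the control libraries. The control values lay close together, and T overlapped with D but not with the control. In the fit, the log2 fold change was 1.98 ± 0.18 in T vs. C (adjusted P = 0.000509, limma) and -0.20 in T vs. D, with a 95% interval of -0.61 to 0.21. The T vs. D value was -0.07 without the first D replicate and -0.39 without the second.

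The other gene on 6DL, Traes_6DL_E87DBFB1C, was the most variable of the abundant ABF genes in T leaves. It had 75.4, 23.8 and 49.0 FPKM in the T libraries, 72.3, 59.0 and 81.7 FPKM in the D libraries and 21.2, 18.1 and 20.1 FPKM in the control libraries. The first T library lay within the D range, whereas the second was just above the highest control library. Its log2 fold change was 0.98 ± 0.33 in T vs. C (adjusted P = 0.0977, limma), so that this gene was not called, and -0.60 in T vs. D with a 95% interval of -1.33 to 0.12. Without the second T replicate, the library that stood apart, the T vs. C value was 1.40 and called, and the T vs. D value was -0.18. Without the first T replicate, they were 0.61 and -0.97.

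Within a library, the chromosome 6 genes did not keep a fixed ratio to each other. Traes_6DL_E87DBFB1C over Traes_6DL_F7015CE89 was 0.680, 0.317 and 0.492 in the T libraries, 0.566, 0.578 and 0.668 in the D libraries and 0.695, 0.760 and 0.901 in the control libraries. The ratio was lower in all D libraries than in all control libraries, while the T libraries ran over a wider range than either group. The opposite order held for Traes_6AL_E8CD2C02B over Traes_6DL_F7015CE89, which was 0.485, 0.742 and 0.503 in the T libraries, 0.501, 0.453 and 0.565 in the D libraries and 0.262, 0.432 and 0.352 in the control libraries. This ratio was higher in all D and all T libraries than in all control libraries, and again the T libraries had the widest range, with the second T library at its end. The model of Traes_6DL_E87DBFB1C was the shortest of the 9, at 225 bp, and its FPKM rested on 92 to 343 fragments in T, 248 to 409 in D and 75 to 121 in the control.

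On chromosome 3, TRAES3BF019000220CFD_g had 8.86, 7.02 and 5.37 FPKM in the T libraries, 12.2, 8.82 and 11.5 FPKM in the D libraries and 2.56, 1.81 and 0.794 FPKM in the control libraries. Only the first T library reached into the D range, and no T library reached down to the control. The fit gave a log2 fold change of 1.91 ± 0.37 in T vs. C (adjusted P = 0.0157, limma) and -0.56 in T vs. D, with a 95% interval of -1.40 to 0.27. Without the third T replicate, the T vs. D value was -0.37.

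Traes_3AL_17988A22C had the largest T vs. D difference of the 9 genes, at a low level. It had 2.01, 0.745 and 0.654 FPKM in the T libraries, 1.98, 2.52 and 3.55 FPKM in the D libraries and 0.325, 0 and 0.160 FPKM in the control libraries. Of the T libraries, the second and the third were below all D libraries and the first lay within the D range. The values rested on 30 fragments in T, 78 in D and 5 in the control over the 3 libraries of each group. As pooled fragments, the ratio over control was 7.24 in T (exact 95% interval 2.78 to 23.9) and 16.5 in D (6.76 to 52.1), and these intervals cover counting error only.

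In the fit, the log2 fold change of Traes_3AL_17988A22C was 2.21 ± 0.57 in T vs. C (adjusted P = 0.0457, limma) and -1.24 in T vs. D. The 95% interval of the T vs. D difference was -2.52 to 0.04, with an unadjusted P-value of 0.0567 and an adjusted P-value of 0.675 in limma. Its T vs. C call was lost without the second control replicate and without the first T replicate, where the values were 1.62 and 1.76, and in a fit of T and C alone. It was also lost with 0.01 or 1 FPKM added before the log2 in place of 0.1 FPKM, at 3.48 and 0.79.

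Traes_5AL_79E6A58E6 was the gene with the smallest fold change over control and the only one in which T and D did not overlap, where 5.05% of all genes were lower in T without overlap. It had 5.38, 5.98 and 5.40 FPKM in the T libraries, 8.02, 6.77 and 7.14 FPKM in the D libraries and 3.43, 1.60 and 2.75 FPKM in the control libraries. All T libraries were above all control libraries and below all D libraries. The log2 fold change was 0.96 ± 0.23 in T vs. C (adjusted P = 0.0376, limma), under the fold threshold, and -0.32 in T vs. D with a 95% interval of -0.85 to 0.20. Without the first or the third control replicate, the T vs. C difference was called, at 1.17 and 1.0.

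With the 3AL gene, the genes on chromosome 7 were the least abundant in treated leaves. Traes_7DS_C6A3C10A6 had 2.63, 2.2 and 2.16 FPKM in the T libraries, 3.14, 2.16 and 2.55 FPKM in the D libraries and 0.871, 0.515 and 0.289 FPKM in the control libraries. T and D overlapped, and both lay apart from the control. The fitted log2 fold change was 1.81 ± 0.33 in T vs. C (adjusted P = 0.0118, limma) and -0.10 in T vs. D, with a 95% interval of -0.84 to 0.65. With a library left out, the T vs. D value ran between -0.23 without the second D replicate and 0.03 without the first.

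Traes_7BS_280163F24 was near the limit of detection in control leaves. It had 0.775, 1.04 and 1.23 FPKM in the T libraries, 1.42, 0.720 and 1.46 FPKM in the D libraries and 0.0567, 0.244 and 0.0418 FPKM in the control libraries. All T values lay within the D range. With 48 fragments in T, 67 in D and 6 in the control, the pooled ratio over control was 9.65 in T (exact 95% interval 4.12 to 27.6) and 11.8 in D (5.14 to 33.3), again for counting error only, where the control libraries held 1, 4 and 1 fragments. In the fit, the log2 fold change was 2.36 ± 0.45 in T vs. C (adjusted P = 0.0132, limma), and -0.13 in T vs. D with a 95% interval of -1.12 to 0.87. With a library left out, the T vs. D value ran between -0.43 without the second D replicate and 0.05 without the first T replicate. With 1 FPKM added before the log2, the T vs. C value was 0.81 and not called.

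**Figure D2:**
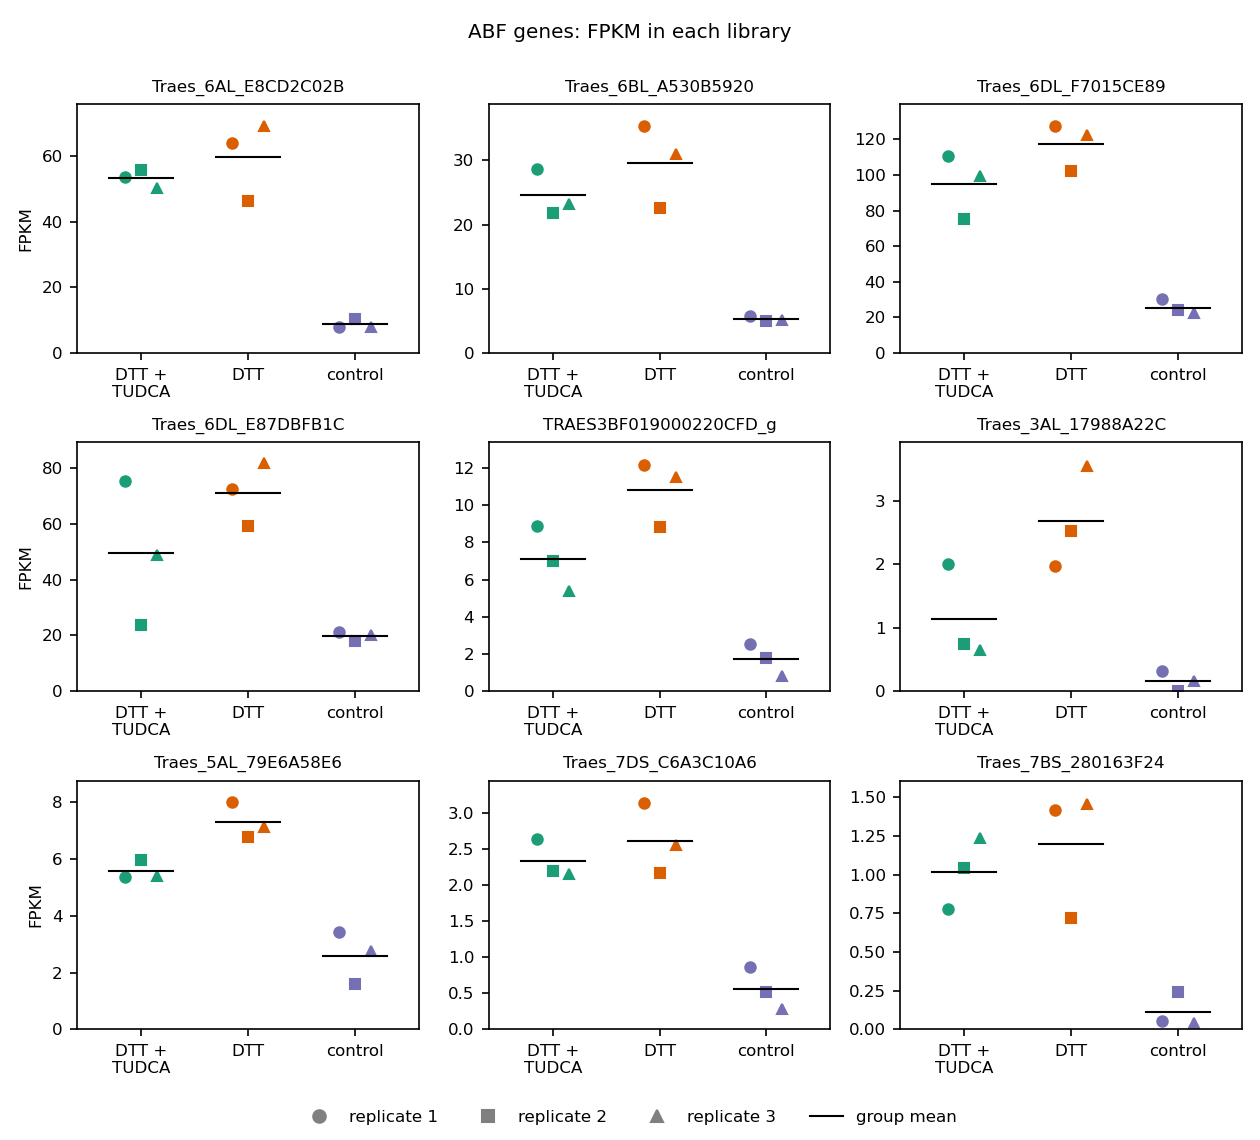
FPKM (vertical axes, each from 0 on its own scale) of the 9 ABF genes in DTT + TUDCA, DTT and control leaves. Points are single libraries, symbols give the replicate and bars the group means; no treated library falls into the control range, and Traes_5AL_79E6A58E6 is the only gene whose T and D points do not overlap.

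The D vs. C difference, by which the genes had been chosen, had the same sign for all 9. The log2 fold change in D vs. C was 2.51 for Traes_6AL_E8CD2C02B, 2.18 for Traes_6BL_A530B5920, 1.95 for Traes_6DL_F7015CE89 and 1.58 for Traes_6DL_E87DBFB1C. Of the others, it was 3.45 for Traes_3AL_17988A22C, 2.48 for Traes_7BS_280163F24, 2.47 for TRAES3BF019000220CFD_g, 1.91 for Traes_7DS_C6A3C10A6 and 1.28 for Traes_5AL_79E6A58E6. The median was 2.18, and all 9 met the call in D vs. C, where 4.27% of all genes tested were called higher. With 1 FPKM added before the log2, 8 met it, and Traes_7BS_280163F24, at 0.89, did not. The D and C libraries overlapped in none of the 9, where 16.6% of all genes were higher without overlap. Nothing is read from these counts, since the same comparison had chosen the genes. The genes nearest the fold threshold were Traes_5AL_79E6A58E6 and Traes_6DL_E87DBFB1C. The study's list holds called genes only, so no gene just outside the threshold is named there.

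Compared with the control, 7 of the 9 ABF genes were called higher in T vs. C, against 4.36% of the 78030 genes tested. Without the second T replicate, 8 were, where 2968 of 78016 genes were called higher. With all libraries and an adjusted P-value under 0.05 in limma, 8 were higher, where 4.29% of all genes were. The 9 genes with no overlap between the libraries of T and C stood against 15.3% of all genes higher without overlap. The median log2 fold change of the 9 was 1.91, and over all genes tested it was -0.02. The control libraries had entered the choice of these genes, so T vs. C was not independent of the choice. With the FPKM left unscaled, which put the median of all genes at 0.16 in T vs. C, all 9 were called.

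Compared with DTT alone, 0 of the 9 ABF genes were called in T vs. D by limma, and likewise 0 without the second T replicate. None of the 9 had an unadjusted P-value under 0.05, and limma-voom on the recovered fragments called 0 of them, with 1 at an unadjusted P-value under 0.05. In limma, the number under 0.05 was 2 with only the T and D groups in the fit and 2 without the first T replicate. It was 0 or 1 in the remaining alternatives. The lowest adjusted P-value in limma was 0.675. All 9 fitted values were below 0, where 52.1% of all genes were, and their median was -0.26 against -0.02 over all genes (-0.39 without the second D replicate). The number below 0 was 7 without the first or without the third D replicate and 8 without the first T replicate. The D libraries had entered the choice of the genes for being high, so the sign of T vs. D was not independent of the choice either. Across all genes, 5793 had an unadjusted P-value under 0.05 in this comparison and 1 had an adjusted P-value under 0.05 in limma.

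**Figure D3:**
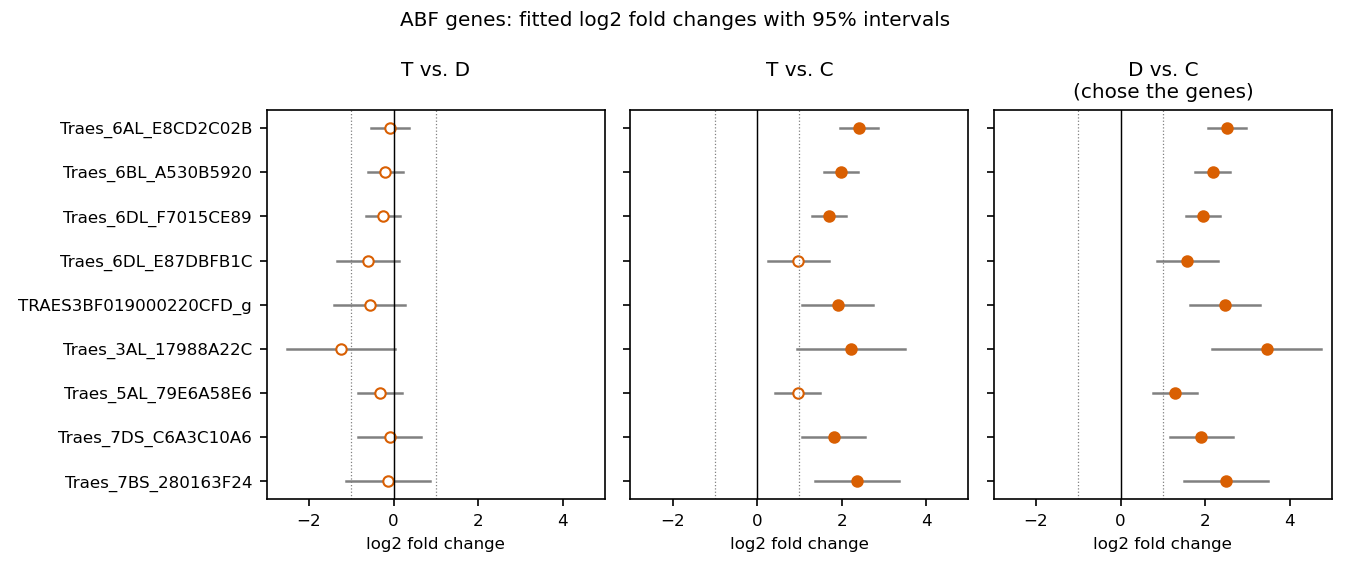
Fitted log2 fold change (horizontal axis; dot) with its 95% interval (line) of each ABF gene in T vs. D, T vs. C and D vs. C (T, DTT + TUDCA; D, DTT; C, control). Filled dots were called; dotted lines mark log2 fold changes of -1 and 1. All 9 T vs. D intervals include 0 and all 9 T vs. C intervals lie above 0, and D vs. C is the comparison that had chosen the genes.

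Expressed as a share of the D vs. C difference on the log2 scale, the T vs. C difference was 96.4% for Traes_6AL_E8CD2C02B, 95% for Traes_7DS_C6A3C10A6, 94.8% for Traes_7BS_280163F24 and 90.9% for Traes_6BL_A530B5920. The smallest shares were 61.7% for Traes_6DL_E87DBFB1C and 64.1% for Traes_3AL_17988A22C. These shares have no test, and the genes with the smallest shares were those whose T libraries varied most, with a coefficient of variation of 52.3 and 66.6%. By library, 7 of 9 genes in the first T library and 8 of 9 in each of the second and the third were below the mean of the D libraries. The D libraries had entered the choice of the genes, so nothing is read from these counts, and no such count was made over all genes.

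The order of the ABF genes by FPKM, a level per length, was similar in the 3 groups. In T leaves, Traes_6DL_F7015CE89 stood first at 95.2 ± 18.3 FPKM (SD, n = 3). Its library range stood apart from that of the next gene. It was followed by Traes_6AL_E8CD2C02B at 53.2 ± 2.81, Traes_6DL_E87DBFB1C at 49.4 ± 25.8 and Traes_6BL_A530B5920 at 24.5 ± 3.59 FPKM. Among these followers, neighbours in the order overlapped in library range. In D leaves, the first was again Traes_6DL_F7015CE89 at 117 ± 13.5 FPKM, then Traes_6DL_E87DBFB1C at 71.0 ± 11.4 and Traes_6AL_E8CD2C02B at 59.8 ± 12 FPKM, which overlapped, and Traes_6BL_A530B5920 at 29.6 ± 6.49 FPKM, which stood apart. In control leaves, these 4 genes stood apart from each other, at 25.5 ± 4.31 for Traes_6DL_F7015CE89, 19.8 ± 1.53 for Traes_6DL_E87DBFB1C, 8.71 ± 1.39 for Traes_6AL_E8CD2C02B and 5.35 ± 0.417 FPKM for Traes_6BL_A530B5920. The 5 genes of the other chromosomes were below them in every group, and in control leaves each overlapped with its neighbour in the order.

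The gene whose profile over the 9 libraries lay nearest to the mean profile of the 9 was Traes_6DL_F7015CE89, with a root mean square difference of 0.132 on the log2 scale, and the farthest was Traes_3AL_17988A22C at 0.791. The study's tables of hormone genes, transcription factors and protein processing genes of the endoplasmic reticulum named 560 other genes that were tested. These tables had been drawn up on the same libraries. Among the 560, the nearest profiles were those of the PP2C genes Traes_3AL_37DF311BB (0.156) and Traes_1DL_19271CD0B (0.208) and of the bZIP gene Traes_1AL_F18EC96DF (0.214). Their log2 fold changes in T vs. D were -0.40, -0.43 and -0.55. Among 55137 genes with a mean of at least 1 FPKM, the nearest were Traes_5BL_BCA9D4B2F (0.0962) and Traes_7BL_7199520DE (0.141), which carry no name in the study's tables. The measure is a likeness over 9 libraries that share their groups, with no test.

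The genes upstream of the ABFs (PYR/PYL, PP2C and SnRK2) were read from the same list of hormone genes, which the study had chosen on these libraries. The list held only genes that differed between D and C, so nothing is read from their D vs. C counts. T vs. C and T vs. D share libraries with that choice, so they were not independent of it either. All 5 PYR/PYL receptor genes were called lower in T vs. C, where 3.5% of all genes were, and in D vs. C, where 3.75% were. None of the 5 was called in T vs. D by limma without a replicate block or by limma-voom, and 4 had an unadjusted P-value under 0.05. All 5 values were above 0, where 52.1% of all genes were below 0. Their median was 1.25, against -0.02 over all genes tested. The most abundant, Traes_2BS_6428AA6CC, had 15.2, 41.2 and 7.97 FPKM in the T libraries, 5.23, 13.7 and 7.06 FPKM in the D libraries and 45.8, 51.3 and 58.8 FPKM in the control libraries. T overlapped with D in the third replicate, and the second replicate was the highest of both groups. The largest T vs. D value was 1.68 for Traes_4AS_72BEF89AC (adjusted P = 0.655, limma). Without the third T replicate, all 5 receptors were called higher in T vs. D, with a median of 1.78. In that fit, 766 of all 77965 genes tested were called higher. Without the second T replicate, the library that stood apart, 0 were called and the median was 0.68.

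Of the 25 PP2C phosphatase genes, negative regulators of ABA signaling that ABA itself induces, 24 were called higher in T vs. C, where 4.36% of all genes were, and in D vs. C, where 4.27% were, and the other was called lower in D vs. C. Nothing is read from the D vs. C counts, since that comparison had chosen the genes. In T vs. D, 24 of the 25 values were below 0, where 52.1% of all genes were. Their median was -0.80, against -0.02 over all genes tested. The D libraries had entered the choice, so these signs were not independent of it. Called lower were 4, where 0.466% of all genes were, none with an adjusted P-value under 0.05 in limma. The most abundant, TRAES3BF111700080CFD_g, had 125, 65.8 and 76.9 FPKM in the T libraries, 186, 124 and 184 FPKM in the D libraries and 10.9, 8.68 and 9.33 FPKM in the control libraries. Its first T library reached the lowest D library, and its log2 fold change in T vs. D was -0.86 (adjusted P = 0.566, limma). The largest difference was that of Traes_3DL_71B7E80D2, at -1.95 (adjusted P = 0.524, limma), with 0.624, 0.204 and 0.172 FPKM in the T libraries and 1.91, 0.714 and 2.30 FPKM in the D libraries, while the control libraries held no fragment of it. The number of PP2C genes called was 0 without the first or the third D replicate and without the second or the third T replicate, 10 without the second D replicate and 12 without the first T replicate. Over all genes tested, 463 of 77988 were called higher and 370 lower without the second D replicate. Without the first T replicate, 871 of 77920 were called higher and 1311 lower.

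Of the 14 SnRK2 kinase genes, which act directly on ABFs, 10 were called higher and 1 lower in T vs. C, where 4.36% of all genes were called higher and 3.5% lower. In D vs. C, 13 were called higher and 1 lower, where 4.27% of all genes were called higher and 3.75% lower. Nothing is read from the D vs. C counts, since that comparison had chosen the genes. In T vs. D, 0 were called by limma without a replicate block and by limma-voom, and 1 had an unadjusted P-value under 0.05. Below 0 were 13 values, where 52.1% of all genes were. Their median was -0.45, against -0.02 over all genes tested. The D libraries had entered the choice, so these signs were not independent of it. The most abundant, Traes_2DL_6CD064E13, had 34.4, 33.3 and 24 FPKM in the T libraries, 38.2, 30.4 and 41.8 FPKM in the D libraries and 6.03, 6.20 and 5.43 FPKM in the control libraries. The T and D libraries overlapped, and the log2 fold change in T vs. D was -0.22. The largest T vs. D difference was -1.27 for Traes_1BL_D20749C1D (adjusted P = 0.672, limma). Without the second D replicate, 1 SnRK2 gene was called lower, where 370 of 77988 genes were.

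The study also listed genes of the GO term response to water, a term that covers dehydrins and other genes of dehydrated tissue. It had listed only genes that differed between D and C, so nothing is read from their D vs. C counts. The C and D libraries entered that choice, so T vs. C and T vs. D were not independent of it either. Of these 25 genes, 19 were called higher and 1 lower in T vs. C, where 4.36% of all genes were called higher and 3.5% lower. In D vs. C, 22 were called higher and 1 lower, where 4.27% of all genes were called higher and 3.75% lower. In T vs. D, 10 were called lower, where 0.466% of all genes were, against 0 of the 9 ABF genes. Of the 25 values, 24 were below 0, where 52.1% of all genes were, with a median of -1.62. The difference between these genes and the ABFs was not tested. The most abundant, Novel17043, had 503, 175 and 223 FPKM in the T libraries, 629, 501 and 554 FPKM in the D libraries and 137, 123 and 112 FPKM in the control libraries. Its first T library was in the D range and the others were far below it. The gene with the only adjusted P-value under 0.05 in T vs. D, 0.0231 in limma, was Traes_5DL_134F29727, which had 0.204, 0.319 and 0.252 FPKM in the T libraries and 7.29, 7.65 and 18.6 FPKM in the D libraries, while it was at 0 in the control libraries. The number of genes called in this list was 5 without the third D replicate and 16 without the first T replicate. Over all genes tested, 401 of 78033 were called higher and 216 lower without the third D replicate. Without the first T replicate, 871 of 77920 were called higher and 1311 lower.

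**Figure D4:**
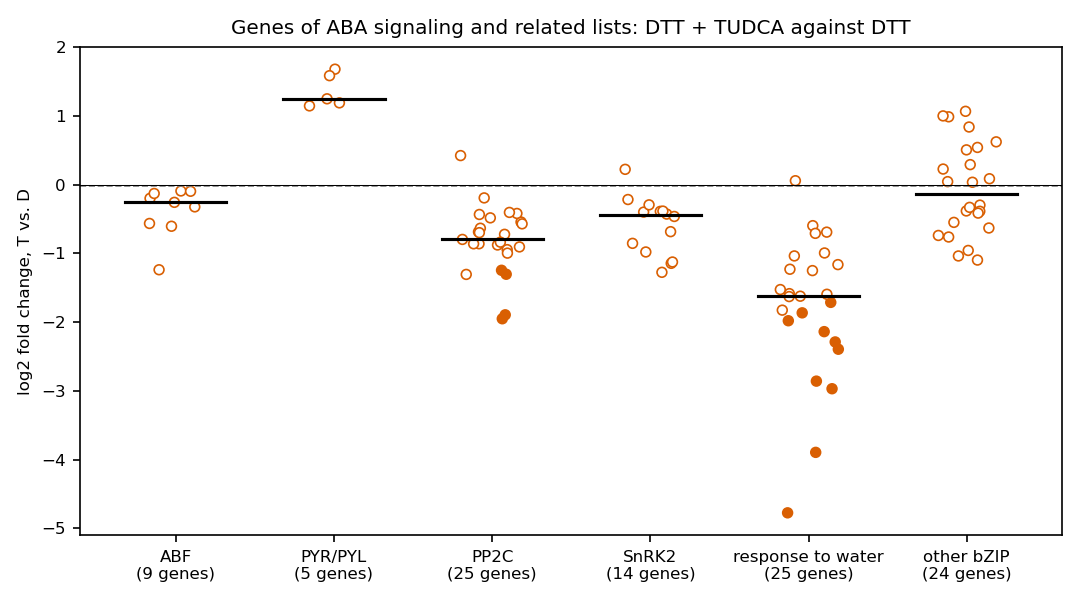
Fitted log2 fold change in T vs. D (vertical axis; T, DTT + TUDCA; D, DTT) of each gene (circle; filled, called) in the ABF list and in 5 related lists, with the list median as a bar and the median of all genes tested as a dashed line. The median is -0.26 for ABF, 1.25 for PYR/PYL, -0.80 for PP2C, -0.45 for SnRK2, -1.62 for response to water and -0.13 for the other bZIP genes, and filled circles occur only among PP2C and response to water.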

How the data were processed

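The authors filtered 150 bp paired-end reads for adapters, undetermined bases and quality, mapped them to the wheat genome and deposited FPKM values of all genes as 1 table. Per the labels, their tools were Bowtie2 2.2.3, TopHat2 2.0.12 and HTSeq 0.6.1. The genome release was not given in the sources used here. The authors tested counts with DESeq. Because the deposited values are FPKM, limma 3.58.1 in R 4.3.3 was used instead.

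Each library was scaled by its median-ratio factor (0.8613 to 1.096, from 54436 genes), and the 78030 genes with a mean of at least 0.1 FPKM were fitted on log2(scaled FPKM + 0.1) in 1 model of the 3 groups with a variance trend. Fold changes are on that scale, which understates the change of low genes. Contrasts were T vs. C, T vs. D and D vs. C, and P-values were adjusted by Benjamini-Hochberg over all genes tested. FPKM values printed for libraries are as deposited. Fragments per gene were recovered from the FPKM steps for 100.0% of genes above 0 (tolerance 0.01 fragment), and implied lengths were whole for 99.86%. Steps were tested on simulated data.

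The ABF, PYR/PYL, PP2C and SnRK2 genes, the response to water genes and the other bZIP genes came from the study's tables. These members and lists were chosen with earlier results of these data known. The genes named are the 9 ABFs and, from each other list, the gene with the highest mean FPKM and the one with the largest T vs. D change, the 3 bZIP60 orthologs, and the genes most like the mean ABF profile. No identifier matched the RefSeq gene table, so no sequence or coordinate is given. Deviations from the group means of same-numbered replicates correlated at 0.21 to 0.27 between T and C, each of the 6 libraries most with its own number. The numbers may thus pair T and C, although the labels name no shared batch. The main fit did not use such a pairing, so its errors, intervals and P-values are unpaired. A fit with the replicate number as a block was an alternative.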

Additional observations from a re-analysis of the deposited data

How the results depend on the processing

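The 20 alternatives changed the amount added before the log2, the minimum mean FPKM, the scaling, the variance trend, the threshold, the libraries in the fit and the libraries left out, or used limma-voom on the recovered fragments. Under all of them, 0 ABF genes were called in T vs. D, with a median log2 fold change between -0.39 and -0.18 with a library left out. In T vs. C, the number called was between 5 (1 FPKM added before the log2) and 9 (unscaled FPKM), and between 6 and 8 with a library left out. With 1 FPKM added, the ABF median was 1.02 in T vs. C and 1.56 in D vs. C. This alternative shrinks low genes by construction, and the call of Traes_7BS_280163F24 was lost in T vs. C and in D vs. C, at 0.81 and 0.89, so that 8 of 9 were called in D vs. C. With a minimum mean of 1 FPKM that gene was not tested. Unscaled FPKM called 4891 genes higher and 1651 lower in T vs. C, against 3405 and 2733 with scaling.

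A sign change in T vs. D occurred with a library left out. Traes_6AL_E8CD2C02B ran between -0.27 and 0.0387 (without D replicate 3). Traes_7BS_280163F24 ran between -0.43 and 0.05, with 0.0058 without D replicate 1, 0.0458 without D replicate 3 and 0.0503 without T replicate 1. Traes_7DS_C6A3C10A6 ran between -0.23 and 0.0315 (without D replicate 1). With a minimum mean of 1 FPKM, the median of the other bZIP genes was 0.0397, over 18 genes. The cause was not tested.

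Of the 93 genes of the 5 related lists, 14 were called in T vs. D, 1 at an adjusted P-value under 0.05 in limma, 6 with 0.01 FPKM added and 9 with only the groups compared. With a library left out, the number was between 5 (without D replicate 3) and 31 (without T replicate 1), and it was 8 without D replicate 1, 26 without D replicate 2 and 9 without T replicate 2. With the replicate block it was 25, of which 3 were PYR/PYL, 4 PP2C, 2 SnRK2 and 16 response to water genes, and the block changed no ABF call. Calls over all genes tested moved too, from 493 higher and 364 lower in the main fit to 579 and 395 with the block. They were 401 and 216 without D replicate 3, 463 and 370 without D replicate 2, and 871 and 1311 without T replicate 1. Same-numbered T and D libraries had deviations that correlated at 0.09, 0.04 and -0.3, and 0 of these 6 libraries correlated most with their own number. Whether they share a batch was not tested, and the labels name none. Depth limits Traes_3AL_17988A22C and Traes_7BS_280163F24, with 5 and 6 fragments in the 3 control libraries together.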

Other observations

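The bZIP family to which the ABFs belong also holds regulators outside ABA signaling, and 24 other bZIP genes were in the study's tables, chosen on these libraries. Of these, 15 were called higher and 3 lower in T vs. C, where 4.36% of all genes tested were called higher and 3.5% lower. In D vs. C, 17 were called higher and 5 lower, where 4.27% of all genes were called higher and 3.75% lower. These genes had been chosen on the same libraries, so nothing is read from the D vs. C counts. In T vs. D, 0 of the 24 were called by limma and by limma-voom, 10 had an unadjusted P-value under 0.05, and 12 values lay on each side of 0. The number called was 3 without the first T replicate, where 871 of 77920 genes were called higher and 1311 lower. It was 1 without the first D, the second D or the third T replicate. The most abundant, Traes_5BS_B2CD001D1, had 33.6, 33.3 and 31.6 FPKM in the T libraries, 32.2, 23.7 and 16.9 FPKM in the D libraries and 123, 151 and 96.2 FPKM in the control libraries. Unlike the ABF genes, it was thus lower in every treated library than in every control library, with log2 fold changes of -2.07 in T vs. C and -2.62 in D vs. C. The largest T vs. D difference was -1.10 for Traes_5BL_F3018E8CA, which had 1.24, 0.133 and 0.187 FPKM in the T libraries, 1.0, 0.571 and 1.23 FPKM in the D libraries and 0, 0 and 0.0285 FPKM in the control libraries.

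Orthologs of bZIP60, a membrane-bound transcription factor of the unfolded protein response in Arabidopsis, are 3 of these genes. They were called higher in T vs. C, with a median log2 fold change of 2.80, and in D vs. C, with a median of 1.81. In T vs. D, their fitted values were all above 0, between 0.84 and 1.07, and none was called by limma (lowest adjusted P = 0.665), whereas all 3 had an unadjusted P-value under 0.05. Traes_7BL_625F55A12 had 26.3, 84.1 and 25.9 FPKM in the T libraries, 23.6, 24.1 and 12.3 FPKM in the D libraries and 4.03, 4.24 and 4.59 FPKM in the control libraries. Traes_7AL_25850F96F and Traes_7DL_3CE000E38 were likewise highest in the second T library, at 57.2 and 52.9 FPKM, the library in which Traes_6DL_E87DBFB1C was lowest among the treated leaves.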
